A study of Homo sapiens with 12 samples.

Results

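The genes described here encode the TGF-beta, BMP and activin pathway: its ligands, receptors, SMAD proteins, secreted antagonists and a few of its best known target genes. They were chosen by symbol in the deposited raw counts, by a pattern for the BMP, BMP receptor, GDF, inhibin beta, SMAD, activin receptor, TGF-beta, TGF-beta receptor and ID names, together with INHA, NOG, GREM1, FST, FSTL3, CHRD, BAMBI and TGFBI. The rule found 61 genes of 23228, and 49 of them held enough counts to be tested. SUM149PT is an established human line of inflammatory breast cancer, of the triple-negative and basal-like kind. Polyadenylated RNA was sequenced from 4 groups of 3 libraries each. In the ipatasertib group the cells were kept in DMSO from day -5 and then received on day 0 ipatasertib at 5 µM, which inhibits the kinases of the AKT family. The tazemetostat group was held from day -5 in 5 µM tazemetostat, which inhibits EZH2, a histone methyltransferase, and stayed in it on day 0. The combination group was kept in 5 µM tazemetostat from day -5 and received both inhibitors at 5 µM each on day 0. The DMSO group received neither inhibitor. All groups were passaged on day -3 and day -1, plated at 250000 cells per dish, moved to 2% serum on day 0 and collected 24 h later. The exposure to tazemetostat was therefore longer than that to ipatasertib. The model is 1 cell line at 1 dose of each inhibitor and 1 time.

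Ligands of this superfamily are dimers that bring type I and type II receptor kinases together at the cell surface, and the activated type I receptor phosphorylates a receptor-activated SMAD. TGF-beta and activin ligands signal mainly through SMAD2 and SMAD3, and BMP ligands through SMAD1, SMAD5 and SMAD9. Both arms share SMAD4, are held back by the inhibitory SMAD6 and SMAD7, and are tuned outside the cell by binding proteins such as noggin, gremlin and follistatin. In breast epithelium TGF-beta is known for growth arrest and for the programme of mesenchymal and matrix genes, and BMP signalling for the ID genes. EZH2 places the repressive mark H3K27me3, which covers many developmental genes with CpG-rich promoters, and AKT restrains the FOXO transcription factors.

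Gene counts summed to between 22355242 and 49970540 per library, and a gene with no count could still have had up to 3 counts, or 0.0602 to 0.130 CPM. CPM here are counts scaled to a common library size with TMM factors. The limit covers counting error only. Within their groups, the libraries tazemetostat A and combination B differed most from the rest (chi-square per degree of freedom of 14.4 to 24.9 in their pairs, against 2.64 to 6.68 in all other pairs). Counts of members called without these 2 libraries were within 1.5 times of those with them in every comparison against DMSO.

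All 9 markers of basal epithelium were detected, and the keratins among them were lower with ipatasertib and with the combination. Their summed level was 1955 to 2091 CPM with ipatasertib, 2874 to 3149 CPM with tazemetostat and 1888 to 1991 CPM with the combination, against 3443 to 3583 CPM under DMSO. Of the 9, 2 were higher and 6 lower with ipatasertib, 1 higher and 5 lower with tazemetostat, and 2 higher and 6 lower with the combination. KRT5, a basal keratin, changed by -2.11 (SE 0.07) with ipatasertib, -0.40 (SE 0.06) with tazemetostat and -3.53 (SE 0.07) with the combination. KRT14, its basal partner, changed by -2.68 (SE 0.10) with ipatasertib, -0.29 (SE 0.08) with tazemetostat and -3.13 (SE 0.10) with the combination, and KRT17 by -2.08 (SE 0.07) with ipatasertib, -0.32 (SE 0.06) with tazemetostat and -2.62 (SE 0.07) with the combination. TP63, a basal transcription factor, was higher at 0.73 (SE 0.10) with ipatasertib, 0.82 (SE 0.10) with tazemetostat and 0.78 (SE 0.10) with the combination. Of the hormone receptors, which a triple-negative line is described as lacking, PGR had 0 counts under DMSO, but ESR1 RNA was detected. ESR1 had 302 counts with ipatasertib, 759 with tazemetostat and 356 with both inhibitors, against 425 under DMSO, and was called with tazemetostat alone, at 0.48 (SE 0.10). The summed level of 16 markers of other cell types lay at 437 to 452 CPM under ipatasertib, 303 to 340 CPM under tazemetostat and 259 to 297 CPM under both inhibitors, against 483 to 550 CPM under DMSO. Of these 16, 10 passed the filter, and 7 were higher and 3 lower with ipatasertib, 1 higher and 5 lower with tazemetostat, and 4 higher and 5 lower with the combination. Without DMSO A the higher ones with ipatasertib were 3. The sums came mostly from CD68, which many epithelial cells express, and from the matrix genes DCN, COL3A1 and LUM. The leukocyte marker PTPRC had 57 counts with ipatasertib, 46 with tazemetostat and 157 with both inhibitors, against 33 under DMSO, and was higher with ipatasertib and with the combination. The endothelial markers PECAM1 and CDH5 were higher with the same treatments. PECAM1 had 266 counts with ipatasertib, 166 with tazemetostat and 399 with both inhibitors, against 98 under DMSO, and CDH5 had 40 counts with ipatasertib, 35 with tazemetostat and 88 with both inhibitors, against 21 under DMSO. The defining markers CD3E, LYZ, ALB and HBB had at most 8 counts in any group. The part of all these markers in the results below was not tested. In RNA from whole cultures, fewer cells that express a gene and less RNA of it per cell cannot be told apart. Whether the libraries of a group are separate cultures is not in the labels, and the p-values therefore rest on a spread between libraries that may be technical.

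Changes are log2 fold changes from 1 quasi-likelihood fit in edgeR over all 14874 genes tested, each with a standard error (SE, 3 libraries per group), and a gene is called higher or lower at an adjusted p (Benjamini-Hochberg over all genes tested) under 0.05. With ipatasertib, 17 of the 49 genes were higher and 13 lower, or 61.2%, against 54.1% of all genes tested (25.4% higher and 28.7% lower). With tazemetostat 20 were higher and 16 lower, or 73.5%, against 46.0% of all genes tested (25.1% higher and 20.9% lower). With the combination 23 were higher and 19 lower, or 85.7%, against 71.0% of all genes tested (36.5% higher and 34.5% lower). The median log2 change of the 49 genes was 0.10 for ipatasertib, -0.02 for tazemetostat and 0.10 for the combination, beside -0.01, 0.02 and 0.02 over all genes tested. The 49 genes were not matched to the others for count level. BMP3, BMP8A, GDF15, GDF9 and NOG passed the filter on low counts through treated libraries and would not have passed on the DMSO libraries alone, so these counts are a description and no support. The 3 comparisons share the DMSO libraries.

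The libraries of a treated group and of DMSO did not overlap in CPM for 40 of the 49 genes with ipatasertib (66.1% of all genes tested), 37 with tazemetostat (55.7%) and 40 with the combination (71.9%). Changes of 2-fold or more were 3 higher and 1 lower with ipatasertib (4.53% and 2.10% of all genes tested), 10 higher and 1 lower with tazemetostat (6.69% and 1.07%), and 10 higher and 4 lower with the combination (13.8% and 5.11%). The 10 genes called higher in all 3 treated groups were ACVR1B, BMP3, BMP8B, GDF15, ID2, ID4, INHBB, NOG, SMAD2 and SMAD9. Of these, BMP3, GDF15 and NOG passed the filter only through treated libraries. They are also among the genes higher by 2-fold or more in each comparison, and with ipatasertib they make up all 3 of these. The ipatasertib calls of BMP3 and NOG ended when single libraries, named below, were left out. The 7 called lower in all 3 were BMP4, FSTL3, GDF11, INHBA, TGFB3, TGFBI and TGFBR1. Another 7 were called in opposite directions by the single inhibitors. BMP2, BMPR2, GREM1 and TGFB2 were higher with ipatasertib and lower with tazemetostat, and BAMBI, BMP6 and GDF6 were lower with ipatasertib and higher with tazemetostat. ACVR2A, BMP8A, BMPR1A and SMAD4 were called in none of the 3 comparisons.

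**Figure D1:**
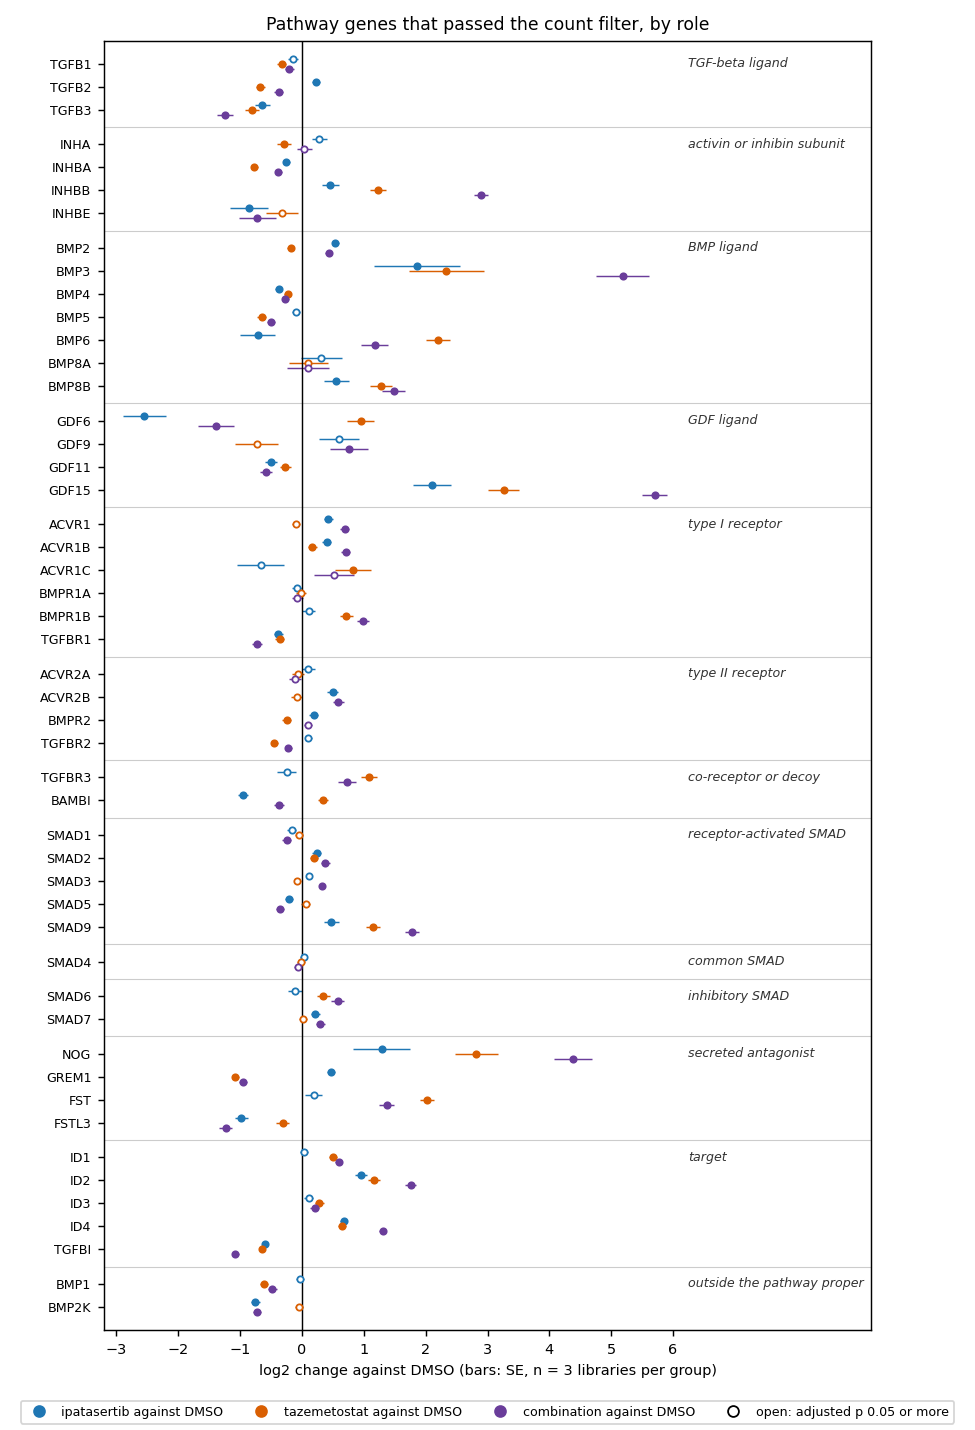
Log2 change against DMSO (x axis) of the 49 tested pathway genes, 1 row per gene grouped by role, with blue, orange and purple points for ipatasertib, tazemetostat and the combination, open where the adjusted p was 0.05 or more, and horizontal lines of 1 SE (3 libraries per group). GDF15, BMP3 and NOG reach 5.70, 5.19 and 4.38 with the combination, while the TGF-beta ligands and TGFBI lie left of 0 with tazemetostat and with the combination.

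All 3 TGF-beta ligands were lower with tazemetostat and with the combination. TGFB3 changed by -0.64 (SE 0.12) with ipatasertib, -0.81 (SE 0.12) with tazemetostat and -1.25 (SE 0.13) with the combination, TGFB2 by 0.23 (SE 0.07) with ipatasertib, -0.67 (SE 0.07) with tazemetostat and -0.37 (SE 0.07) with the combination, and TGFB1 by -0.14 (SE 0.08) with ipatasertib, -0.33 (SE 0.07) with tazemetostat and -0.20 (SE 0.08) with the combination. TGFB3 had 6.05, 7.91 and 6.17 CPM with ipatasertib, 6.52, 5.35 and 6.00 CPM with tazemetostat and 4.48, 4.09 and 4.58 CPM with the combination, against 9.10, 11 and 11.3 CPM under DMSO. Its 3 combination libraries lay below all others and its 3 DMSO libraries above all others, while the single inhibitors overlapped. TGFB2, which had the highest level of the pathway genes per kilobase of exon under DMSO (317 CPM), averaged 1877 ± 50.9 CPM with ipatasertib, 1004 ± 110.1 CPM with tazemetostat and 1236 ± 46.6 CPM with the combination, against 1602 ± 115 CPM under DMSO (SD, n = 3 each). It was therefore above DMSO with ipatasertib and below it in both groups that held tazemetostat. The call of TGFB1 with the combination ended without combination B, combination C, DMSO B or DMSO C (log2 change -0.20 to -0.13, adjusted p = 0.0596 to 0.147), and with scaling by total counts alone, and its combination and DMSO libraries overlapped. TGFB3 shares exon bases with the antisense gene TGFB3-AS1, and the strand setting of the counting is not given in the sources used here. TGFB2 shares 1371 exon bases with TGFB2-OT1 on the same strand, where no strand setting would separate them. The reads of either pair cannot be told apart here.

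The 2 main activin subunits moved in opposite directions. INHBB, the beta-B subunit of activin B, was 7.43-fold higher with the combination (log2 change 2.89, SE 0.12, 95% interval 2.62 to 3.16, adjusted p = 4.34e-14, quasi-likelihood test of edgeR, adjusted by Benjamini-Hochberg), and changed by 1.23 (SE 0.13) with tazemetostat and 0.46 (SE 0.14) with ipatasertib. INHBB had 3.01, 2.59 and 2.91 CPM with ipatasertib, 5.01, 4.47 and 5.08 CPM with tazemetostat and 15.5, 16.6 and 14.3 CPM with the combination, against 2.13, 2.29 and 1.77 CPM under DMSO. None of the 4 groups overlapped another, and the combination stood far above either inhibitor alone. INHBA, the beta-A subunit of activin A, was lower in every treated group, with changes of -0.25 (SE 0.06) with ipatasertib, -0.77 (SE 0.06) with tazemetostat and -0.38 (SE 0.06) with the combination. INHBA had 227, 257 and 252 CPM with ipatasertib, 171, 170.3 and 173 CPM with tazemetostat and 222, 224 and 227 CPM with the combination, against 275, 301 and 301 CPM under DMSO. Every treated library was below every DMSO library, and the tazemetostat libraries were the lowest. INHA, the alpha subunit that turns a beta subunit into an inhibin, was called against DMSO with tazemetostat alone, at -0.29 (SE 0.12), and that call ended without ipatasertib A, ipatasertib B, ipatasertib C, tazemetostat B, tazemetostat C, DMSO A, DMSO B or DMSO C (log2 change -0.33 to -0.27, adjusted p = 0.0590 to 0.115), and with scaling by total counts alone. INHBE, the beta-E subunit, changed by -0.85 (SE 0.31) with ipatasertib, -0.32 (SE 0.26) with tazemetostat and -0.72 (SE 0.30) with the combination. Its call with ipatasertib ended without ipatasertib B, ipatasertib C, DMSO A or DMSO C (log2 change -0.83 to -0.73, adjusted p = 0.0504 to 0.0784), and that with the combination without combination A, combination B, DMSO A, DMSO B or DMSO C (log2 change -0.73 to -0.53, adjusted p = 0.0606 to 0.152), and with scaling by total counts alone. The call of INHBB with ipatasertib ended without ipatasertib A (log2 change 0.40, adjusted p = 0.0580).

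The promoters of these 2 subunit genes differ in base composition, which is why both are shown (RefSeq, GRCh38.p14, the 250 bases before the start of the gene, 5′ to 3′, whereas the counts were made on hg19). That of INHBB (chr2:120345886-120346135, plus strand) holds 46 CpG and that of INHBA (chr7:41703091-41703340, minus strand) holds 1, beside a median of 11 over 35116 promoters of the same length. Over the genes tested here the medians lay between 20 and 22 in each class of call. INHBB and INHBA lie near the ends of ranges that overlap. Pathway genes higher with tazemetostat held 9 to 48 CpG, and those lower with it held 1 to 36. Whether the CpG count goes with the direction of change was not tested. Capitals mark GGCGCC, a GC-rich motif that SMAD proteins of the BMP arm bind, which reads the same on both strands, and CAGAC or its reverse GTCTG, the core of the SMAD-binding element. GGCGCC occurs in 16.4% of all promoters and in 16 of the 52 pathway genes that have a promoter in the table (30.8%). CAGAC or GTCTG occurs in 38.0% and in 17 of 52 (32.7%). The motif shares were not taken over the genes tested here, whose promoters hold more CpG than the median of all promoters. They are therefore no sign of an excess of GGCGCC in the pathway genes. A match is a description and not a binding site.
INHBB: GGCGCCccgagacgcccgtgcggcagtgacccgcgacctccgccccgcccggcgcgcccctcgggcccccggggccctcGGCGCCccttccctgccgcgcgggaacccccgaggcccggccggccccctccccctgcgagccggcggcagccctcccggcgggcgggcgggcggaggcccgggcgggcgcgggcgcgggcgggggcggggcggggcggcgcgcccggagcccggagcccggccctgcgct
INHBA: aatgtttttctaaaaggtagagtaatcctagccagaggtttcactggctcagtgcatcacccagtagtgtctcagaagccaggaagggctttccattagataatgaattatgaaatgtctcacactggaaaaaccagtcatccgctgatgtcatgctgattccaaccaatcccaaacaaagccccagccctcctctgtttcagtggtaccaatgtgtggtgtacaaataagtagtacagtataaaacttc

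Among the BMP ligands, BMP3, BMP6 and BMP8B were higher by 2-fold or more with tazemetostat and with the combination. BMP3, which antagonises other BMPs, was 36.5-fold higher with the combination (log2 change 5.19, SE 0.43), from raw counts that totalled 16 with ipatasertib, 34 with tazemetostat and 169 with both inhibitors, against 5 under DMSO. BMP3 had 0.176, 0.152 and 0.217 CPM with ipatasertib, 0.210, 0.419 and 0.141 CPM with tazemetostat and 1.5, 1.97 and 2.02 CPM with the combination, against 0.0469, 0.0602 and 0.0327 CPM under DMSO. The combination libraries lay above all others and the DMSO libraries below all others, while the single inhibitors overlapped. The fold of BMP3 rests on 5 counts over the 3 DMSO libraries, and its call with ipatasertib at 1.86 (SE 0.69) ended without ipatasertib A, ipatasertib C, DMSO A or DMSO C (log2 change 1.73 to 1.88, adjusted p = 0.0666 to 0.0711).

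BMP6, a ligand known for control of iron metabolism and bone, changed by -0.72 (SE 0.29) with ipatasertib, 2.19 (SE 0.19) with tazemetostat and 1.18 (SE 0.22) with the combination. BMP6 had 0.502, 0.494 and 0.478 CPM with ipatasertib, 4.05, 3.37 and 3.77 CPM with tazemetostat and 1.43, 2.12 and 1.96 CPM with the combination, against 0.985, 0.541 and 0.883 CPM under DMSO. The 4 groups did not overlap, with tazemetostat highest, the combination next, and ipatasertib lowest. The log2 change of the combination against tazemetostat was -1.02 (SE 0.17). The ipatasertib call of BMP6 was not stable: it ended without ipatasertib A, ipatasertib B, ipatasertib C, tazemetostat C, combination C, DMSO A or DMSO C (log2 change -0.74 to -0.49, adjusted p = 0.0519 to 0.224), and also with scaling by total counts, with DESeq2 and without the filter. BMP8B changed by 0.55 (SE 0.20) with ipatasertib, 1.27 (SE 0.18) with tazemetostat and 1.48 (SE 0.18) with the combination. BMP8B had 1.58, 1.67 and 1.61 CPM with ipatasertib, 2.82, 3.07 and 2.15 CPM with tazemetostat and 3.26, 2.60 and 3.35 CPM with the combination, against 1.03, 1.05 and 1.24 CPM under DMSO. All treated libraries were above the DMSO libraries, and tazemetostat overlapped the combination. BMP8B and BMP8A are near-identical copies that could share reads, so both values are uncertain, and the ipatasertib call of BMP8B ended without ipatasertib A, ipatasertib B, ipatasertib C, DMSO A or DMSO B (log2 change 0.52 to 0.57, adjusted p = 0.0519 to 0.0783).

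BMP2, BMP4 and BMP5 stayed within 2-fold of DMSO. BMP2, which signals through SMAD1, SMAD5 and SMAD9, averaged 329 ± 8.12 CPM with ipatasertib, 199.7 ± 10.9 CPM with tazemetostat and 305 ± 14.3 CPM with the combination, against 227 ± 7.21 CPM under DMSO (SD, n = 3 each). It changed by 0.54 (SE 0.06) with ipatasertib, -0.18 (SE 0.06) with tazemetostat and 0.43 (SE 0.06) with the combination, and the tazemetostat call ended without tazemetostat A (log2 change -0.14, adjusted p = 0.0504), and with scaling by total counts alone. BMP4, a ligand of the same branch, changed by -0.38 (SE 0.06) with ipatasertib, -0.23 (SE 0.06) with tazemetostat and -0.27 (SE 0.06) with the combination, and BMP5 by -0.09 (SE 0.07) with ipatasertib, -0.65 (SE 0.07) with tazemetostat and -0.51 (SE 0.07) with the combination, not called with ipatasertib. With scaling by total counts alone the change of BMP4 with the combination was -0.13 and not called. BMP7 and BMP10 had too few counts to test, BMP7 with raw counts of 0 with ipatasertib, 9 with tazemetostat and 13 with both inhibitors, against 2 under DMSO, and BMP15 had no count in any library.

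GDF15 showed the largest change of the 49 genes. It encodes a divergent member of the superfamily that cells release under stress and that signals through the receptor GFRAL and not through SMADs. GDF15 had 0.828, 0.989 and 0.913 CPM with ipatasertib, 2.31, 2.09 and 1.69 CPM with tazemetostat and 11.4, 9.60 and 11.7 CPM with the combination, against 0.164, 0.271 and 0.196 CPM under DMSO. The 4 groups did not overlap and stood in the order combination, tazemetostat, ipatasertib and DMSO. GDF15 was 52.0-fold higher with the combination (log2 change 5.70, SE 0.20, adjusted p = 5.83e-15, quasi-likelihood test of edgeR, adjusted by Benjamini-Hochberg), 9.61-fold higher with tazemetostat and 4.29-fold higher with ipatasertib. Raw counts totalled 80 with ipatasertib, 273 with tazemetostat and 1007 with both inhibitors, against 22 under DMSO. GDF15 passed the filter only through treated libraries, so these folds rest on 22 DMSO counts and are a description. Per kilobase of exon it had 9.09 CPM with the combination, against 0.175 CPM under DMSO.

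GDF6, a BMP-like ligand of bone and joint development, moved in opposite directions with the single inhibitors. GDF6 had 0.502, 0.114 and 0.304 CPM with ipatasertib, 4.52, 4.09 and 2.85 CPM with tazemetostat and 0.895, 0.409 and 0.899 CPM with the combination, against 1.95, 1.80 and 2.16 CPM under DMSO. The tazemetostat libraries were above the DMSO libraries, and all ipatasertib and combination libraries were below them. The log2 changes were -2.55 (SE 0.34) with ipatasertib, 0.95 (SE 0.22) with tazemetostat and -1.39 (SE 0.29) with the combination. The combination and ipatasertib libraries overlapped, and the call of GDF6 between them at 1.16 (SE 0.42) ended without ipatasertib B, ipatasertib C, combination A or combination C (log2 change 0.81 to 1.12, adjusted p = 0.0795 to 0.148). GDF11, a ligand of the activin-like branch, was lower at -0.50 (SE 0.10) with ipatasertib, -0.27 (SE 0.09) with tazemetostat and -0.58 (SE 0.10) with the combination, and its tazemetostat call ended without DMSO A or DMSO B (log2 change -0.27 to -0.24, adjusted p = 0.0565 to 0.0855), and with scaling by total counts alone. GDF9, an oocyte ligand, was called only with the combination, at 0.76 (SE 0.31), which ended without combination A, combination B, DMSO A or DMSO C (log2 change 0.59 to 0.85, adjusted p = 0.0502 to 0.115). It had raw counts of 53 with ipatasertib, 32 with tazemetostat and 61 with both inhibitors, against 42 under DMSO, and shares 306 exon bases with UQCRQ on the opposite strand, whose reads cannot be told apart here. The other 6 GDF genes failed the filter, and GDF1, GDF2 and GDF7 had no count in any library. GDF1 shares 2517 exon bases with CERS1 on the same strand, whose reads cannot be told apart here. Its count of 0 therefore does not show that it was silent.

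None of the type I or type II receptors reached 2-fold against DMSO. Of the 6 tested type I receptors, 2 were higher and 1 lower with ipatasertib, 3 higher and 1 lower with tazemetostat, and 3 higher and 1 lower with the combination. TGFBR1, the type I receptor of TGF-beta, was the receptor lower in each, at -0.38 (SE 0.08) with ipatasertib, -0.36 (SE 0.07) with tazemetostat and -0.73 (SE 0.08) with the combination, and averaged 251 ± 3.83 CPM with ipatasertib, 256 ± 26.2 CPM with tazemetostat and 198 ± 19.0 CPM with the combination, against 328 ± 17.9 CPM under DMSO (SD, n = 3 each). BMPR1B, a type I receptor for BMPs, was called with tazemetostat and with the combination, at 0.72 (SE 0.10) and 0.99 (SE 0.10), and its change with ipatasertib was 0.11 (SE 0.11). It averaged 9.14 ± 0.205 CPM with ipatasertib, 13.9 ± 0.966 CPM with tazemetostat and 16.8 ± 0.866 CPM with the combination, against 8.51 ± 1.33 CPM under DMSO (SD, n = 3 each), while BMPR1A, the other BMP type I receptor, changed by -0.08 (SE 0.09) with ipatasertib, -0.02 (SE 0.09) with tazemetostat and -0.07 (SE 0.09) with the combination, none of them called. ACVR1, a type I receptor for BMPs and activins, changed by 0.43 (SE 0.07) with ipatasertib, -0.10 (SE 0.07) with tazemetostat and 0.69 (SE 0.07) with the combination, not called with tazemetostat. ACVR1B, the activin type I receptor, changed by 0.40 (SE 0.07) with ipatasertib, 0.17 (SE 0.07) with tazemetostat and 0.71 (SE 0.07) with the combination, and its tazemetostat call ended without ipatasertib A, ipatasertib B, ipatasertib C, tazemetostat B, tazemetostat C, combination A, combination C, DMSO A, DMSO B or DMSO C (log2 change 0.10 to 0.17, adjusted p = 0.0569 to 0.310). ACVR1C, a receptor of the same branch with few counts, was called with tazemetostat, at 0.82 (SE 0.29), and that call ended without tazemetostat B, DMSO A, DMSO B or DMSO C (log2 change 0.66 to 0.88, adjusted p = 0.0540 to 0.119).

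Of the 4 type II receptors, 2 were higher with ipatasertib, 2 lower with tazemetostat, and 1 higher and 1 lower with the combination. TGFBR2, the type II receptor of TGF-beta, changed by 0.10 (SE 0.05) with ipatasertib, -0.45 (SE 0.05) with tazemetostat and -0.22 (SE 0.05) with the combination, not called with ipatasertib. With scaling by total counts alone its change with the combination was -0.08 and not called. ACVR2B, an activin type II receptor, changed by 0.50 (SE 0.09) with ipatasertib, -0.09 (SE 0.09) with tazemetostat and 0.59 (SE 0.09) with the combination, not called with tazemetostat. BMPR2, the BMP type II receptor, was called at 0.19 (SE 0.07) with ipatasertib and -0.25 (SE 0.07) with tazemetostat, and its ipatasertib call ended without ipatasertib B, ipatasertib C or DMSO A (log2 change 0.15 to 0.21, adjusted p = 0.0506 to 0.133).

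The co-receptor TGFBR3 and the decoy receptor BAMBI have no active kinase, and both were higher with tazemetostat. TGFBR3, the betaglycan co-receptor that presents TGF-beta and also holds inhibin, changed by -0.25 (SE 0.16) with ipatasertib, 1.09 (SE 0.13) with tazemetostat and 0.73 (SE 0.14) with the combination. TGFBR3 had 1.86, 1.86 and 1.96 CPM with ipatasertib, 4.40, 5.40 and 4.50 CPM with tazemetostat and 3.98, 3.24 and 3.89 CPM with the combination, against 2.16, 2.29 and 2.29 CPM under DMSO. The 4 groups did not overlap, with tazemetostat highest and ipatasertib lowest, although ipatasertib against DMSO was not called. The log2 change of the combination against tazemetostat was -0.36 (SE 0.12), a call that ended without tazemetostat B or combination B (log2 change -0.28 to -0.24, adjusted p = 0.0777 to 0.130). BAMBI, a decoy receptor that lacks the kinase domain, averaged 9.03 ± 0.812 CPM with ipatasertib, 22.1 ± 0.165 CPM with tazemetostat and 13.6 ± 1.23 CPM with the combination, against 17.5 ± 0.765 CPM under DMSO (SD, n = 3 each). Its log2 change was -0.95 (SE 0.09) with ipatasertib, 0.34 (SE 0.08) with tazemetostat and -0.37 (SE 0.08) with the combination, all called.

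Of the SMADs, SMAD9 changed the most. It encodes a receptor-activated SMAD of the BMP arm and is itself known as a BMP-responsive gene. SMAD9 had 6.17, 5.02 and 5.69 CPM with ipatasertib, 7.87, 9.12 and 10.1 CPM with tazemetostat and 13.8, 14.9 and 13.4 CPM with the combination, against 4.01, 4.0 and 4.25 CPM under DMSO. The 4 groups did not overlap and stood in the order combination, tazemetostat, ipatasertib and DMSO. Its log2 change was 0.47 (SE 0.12) with ipatasertib, 1.15 (SE 0.11) with tazemetostat and 1.78 (SE 0.11) with the combination, or 3.43-fold higher with the combination. The other BMP-arm SMADs went the other way or stayed near 0, SMAD5 at -0.21 (SE 0.07) with ipatasertib, 0.06 (SE 0.07) with tazemetostat and -0.36 (SE 0.07) with the combination and SMAD1 at -0.17 (SE 0.07) with ipatasertib, -0.05 (SE 0.07) with tazemetostat and -0.25 (SE 0.07) with the combination. Only the combination was called for SMAD1, a call that ended with scaling by total counts alone, where it was -0.11. SMAD5 was called with ipatasertib and with the combination, and its ipatasertib call ended without ipatasertib B, DMSO A or DMSO C (log2 change -0.19 to -0.17, adjusted p = 0.0548 to 0.0852), and with scaling by total counts alone. SMAD5 and SMAD1 each share exon bases with an antisense gene.

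Both SMADs of the TGF-beta and activin arm were higher with the combination. SMAD2 changed by 0.24 (SE 0.07) with ipatasertib, 0.20 (SE 0.07) with tazemetostat and 0.38 (SE 0.07) with the combination, and its tazemetostat call ended without tazemetostat B, tazemetostat C, DMSO A, DMSO B or DMSO C (log2 change 0.13 to 0.19, adjusted p = 0.0541 to 0.190). SMAD3 was called with the combination alone, at 0.33 (SE 0.05), with 0.11 (SE 0.05) for ipatasertib and -0.08 (SE 0.05) for tazemetostat. SMAD4, which both arms share, averaged 107 ± 1.17 CPM with ipatasertib, 104 ± 8.80 CPM with tazemetostat and 101 ± 2.04 CPM with the combination, against 105 ± 3.06 CPM under DMSO (SD, n = 3 each), and none of its changes of 0.03 (SE 0.06) with ipatasertib, -0.01 (SE 0.06) with tazemetostat and -0.06 (SE 0.06) with the combination was called. Both inhibitory SMADs were higher with the combination. SMAD6, which acts mainly on the BMP arm and is a feedback target of it, changed by -0.12 (SE 0.11) with ipatasertib, 0.34 (SE 0.10) with tazemetostat and 0.58 (SE 0.11) with the combination, not called with ipatasertib, and its tazemetostat call ended without tazemetostat C, DMSO B or DMSO C (log2 change 0.28 to 0.31, adjusted p = 0.0503 to 0.0755). SMAD7, the feedback inhibitor of both arms, changed by 0.22 (SE 0.07) with ipatasertib, 0.01 (SE 0.07) with tazemetostat and 0.30 (SE 0.07) with the combination, not called with tazemetostat, and its ipatasertib call ended without ipatasertib C (log2 change 0.18, adjusted p = 0.0525).

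**Figure D2:**
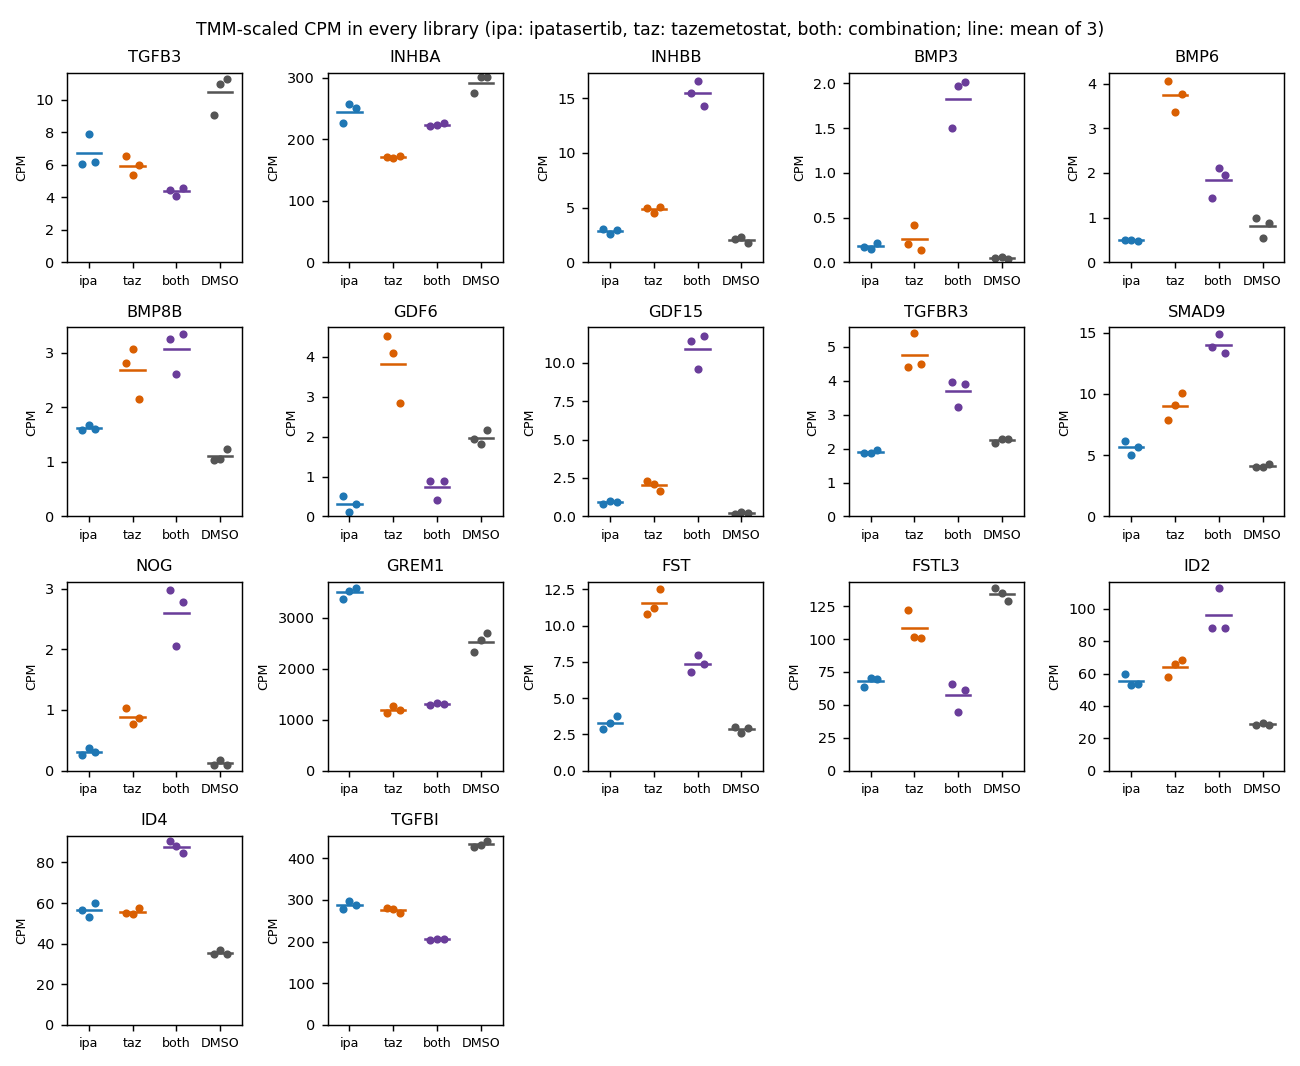
CPM of the 17 named pathway genes in each of the 12 libraries (y axis, from 0, 1 panel per gene, with ipatasertib, tazemetostat, the combination and DMSO from left to right, libraries as points and group means as lines). The combination libraries of GDF15 lie between 9.60 and 11.7 CPM against 0.164 to 0.271 CPM under DMSO, and those of GREM1 between 1288 and 1335 CPM against 2328 to 2699 CPM under DMSO.

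The 4 tested secreted antagonists, which trap ligands outside the cell, split into 2 higher and 2 lower with the combination. NOG encodes noggin, which blocks BMP2, BMP4 and related ligands. NOG had 0.251, 0.380 and 0.304 CPM with ipatasertib, 1.02, 0.768 and 0.863 CPM with tazemetostat and 2.97, 2.05 and 2.78 CPM with the combination, against 0.0938, 0.180 and 0.0981 CPM under DMSO. No group overlapped another, and NOG was 20.8-fold higher with the combination (log2 change 4.38, SE 0.31) and 7.06-fold higher with tazemetostat (log2 change 2.82, SE 0.35). Its raw counts totalled 27 with ipatasertib, 120 with tazemetostat and 240 with both inhibitors, against 13 under DMSO. NOG passed the filter only through treated libraries, so its folds rest on those 13 counts and are a description. With ipatasertib it changed by 1.29 (SE 0.46), a call that ended without ipatasertib B, DMSO A or DMSO C (log2 change 1.11 to 1.20, adjusted p = 0.0610 to 0.0906). FST encodes follistatin, which binds activins almost irreversibly. FST had 2.86, 3.27 and 3.78 CPM with ipatasertib, 10.8, 11.2 and 12.5 CPM with tazemetostat and 6.80, 7.96 and 7.35 CPM with the combination, against 3.0, 2.62 and 2.91 CPM under DMSO. The tazemetostat libraries were highest and the combination libraries next, while ipatasertib overlapped DMSO. FST changed by 0.19 (SE 0.14) with ipatasertib, 2.02 (SE 0.11) with tazemetostat and 1.37 (SE 0.12) with the combination, not called with ipatasertib, and the log2 change of the combination against tazemetostat was -0.65 (SE 0.10).

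GREM1 encodes gremlin 1, another BMP antagonist, and had 173 CPM per kilobase of exon under DMSO. GREM1 had 3369, 3531 and 3587 CPM with ipatasertib, 1122, 1277 and 1198 CPM with tazemetostat and 1288, 1335 and 1303 CPM with the combination, against 2328, 2559 and 2699 CPM under DMSO. Again no group overlapped another, with ipatasertib above DMSO and both groups that held tazemetostat below it. The log2 change was 0.47 (SE 0.06) with ipatasertib, -1.08 (SE 0.06) with tazemetostat and -0.95 (SE 0.06) with the combination, and the combination was 2.67-fold lower than ipatasertib alone (log2 change -1.42, SE 0.06). Exons of GREM1 overlap an antisense transcript, whose reads cannot be told apart here. FSTL3, a follistatin-like binder of activins and of related GDFs, changed by -0.99 (SE 0.10) with ipatasertib, -0.31 (SE 0.10) with tazemetostat and -1.23 (SE 0.11) with the combination. FSTL3 had 63.8, 70.7 and 69.4 CPM with ipatasertib, 122, 101 and 101 CPM with tazemetostat and 66.1, 44.3 and 61.4 CPM with the combination, against 139, 135 and 129 CPM under DMSO. All treated libraries were below the DMSO libraries, tazemetostat the least so, and the combination overlapped ipatasertib. The tazemetostat call of FSTL3 ended without tazemetostat B, tazemetostat C or DMSO A (log2 change -0.31 to -0.29, adjusted p = 0.0542 to 0.0563), and with scaling by total counts alone. Chordin, CHRD, had too few counts to test, with raw counts of 1 with ipatasertib, 6 with tazemetostat and 4 with both inhibitors, against 2 under DMSO.

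The ID genes encode inhibitors of DNA binding, helix-loop-helix proteins without a DNA-binding region that BMP signalling is known to induce, and all 4 were higher with tazemetostat and with the combination. ID2 had 59.5, 52.7 and 53.3 CPM with ipatasertib, 57.8, 65.8 and 68.4 CPM with tazemetostat and 88.3, 113 and 88.3 CPM with the combination, against 28, 29.7 and 27.9 CPM under DMSO. ID4 had 56.3, 53.3 and 60.2 CPM with ipatasertib, 55.0, 54.8 and 57.6 CPM with tazemetostat and 90.4, 88.1 and 84.5 CPM with the combination, against 34.8, 36.9 and 34.9 CPM under DMSO. For both genes the combination libraries were above all others and the DMSO libraries below all others, and the single inhibitors overlapped each other. ID2 changed by 0.95 (SE 0.09) with ipatasertib, 1.17 (SE 0.09) with tazemetostat and 1.76 (SE 0.09) with the combination, and ID4 by 0.67 (SE 0.06) with ipatasertib, 0.65 (SE 0.06) with tazemetostat and 1.30 (SE 0.06) with the combination. ID1 averaged 207 ± 4.64 CPM with ipatasertib, 286 ± 15.9 CPM with tazemetostat and 305 ± 25.0 CPM with the combination, against 203 ± 8.15 CPM under DMSO (SD, n = 3 each), with changes of 0.03 (SE 0.06) with ipatasertib, 0.50 (SE 0.06) with tazemetostat and 0.59 (SE 0.06) with the combination, not called with ipatasertib. ID3 changed by 0.11 (SE 0.07) with ipatasertib, 0.28 (SE 0.07) with tazemetostat and 0.21 (SE 0.07) with the combination, not called with ipatasertib. The combination and DMSO libraries of ID3 overlapped, and that call ended without combination A (log2 change 0.16, adjusted p = 0.0538). Per kilobase of exon, ID3 and ID1 were the most abundant of the ID genes, at 312 and 247 CPM with the combination, against 270.0 and 164 CPM under DMSO. ID2 overlaps the antisense gene ID2-AS1 in its exons.

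The promoters of the 4 ID genes are shown because all 4 genes were higher with tazemetostat and with the combination (RefSeq, GRCh38.p14, 250 bases before the start, 5′ to 3′, capitals as above). ID1 (chr20:31605039-31605288, plus strand) and ID2 (chr2:8681806-8682055, plus strand) hold neither motif in this window, while ID3 (chr1:23559502-23559751, minus strand) and ID4 (chr6:19837120-19837369, plus strand) hold 1 CAGAC each. They hold 19, 29, 24 and 34 CpG in that order, above the median of 11 over all promoters. Over the genes tested here the medians were 20 to 22 in each class of call, and ID1 lay below them. The bases 11 to 50 after the ID4 start were not found in a GENCODE 29 transcript of that gene, so its start is less certain.
ID1: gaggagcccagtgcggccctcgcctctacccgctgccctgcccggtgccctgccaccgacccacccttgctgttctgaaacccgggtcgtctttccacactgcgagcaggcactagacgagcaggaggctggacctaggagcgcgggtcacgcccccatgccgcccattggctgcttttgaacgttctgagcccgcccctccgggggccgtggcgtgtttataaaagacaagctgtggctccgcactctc
ID2: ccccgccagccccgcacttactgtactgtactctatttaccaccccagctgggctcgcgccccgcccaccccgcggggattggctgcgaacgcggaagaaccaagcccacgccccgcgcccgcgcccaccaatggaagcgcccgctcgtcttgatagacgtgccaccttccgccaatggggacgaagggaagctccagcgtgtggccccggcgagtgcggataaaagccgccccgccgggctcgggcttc
ID3: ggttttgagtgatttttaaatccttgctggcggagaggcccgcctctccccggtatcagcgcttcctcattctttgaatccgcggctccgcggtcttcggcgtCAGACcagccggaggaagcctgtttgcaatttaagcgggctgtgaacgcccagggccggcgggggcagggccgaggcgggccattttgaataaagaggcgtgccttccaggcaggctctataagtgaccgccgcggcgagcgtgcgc
ID4: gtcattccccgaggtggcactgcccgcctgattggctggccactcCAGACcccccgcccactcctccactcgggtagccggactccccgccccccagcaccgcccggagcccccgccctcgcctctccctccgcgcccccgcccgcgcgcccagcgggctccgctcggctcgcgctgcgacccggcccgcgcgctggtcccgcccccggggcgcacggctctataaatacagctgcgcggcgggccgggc

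CpG counts were also set against the direction of change. The 17 genes with a promoter in the table that were higher with tazemetostat had a median of 28 CpG, the 14 that were lower had 18, and the 11 that were not called had 25. BMP3, GDF6 and NOG, higher with tazemetostat, and BMP1 and BMP2, lower with it, had no promoter there. With ipatasertib the medians were 32 for higher, 25.5 for lower and 20.5 for not called, and with the combination 27, 20 and 22. Over all genes tested the medians lay between 20 and 22 in each class of all 3 comparisons. These medians are a description, and no test was made. The bases after the start were found in a GENCODE 29 transcript of the gene for 33 of the 52 pathway genes with a promoter.

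TGFBI, a secreted matrix protein named for its induction by TGF-beta, was lower in every treated group. TGFBI had 278, 297 and 288 CPM with ipatasertib, 282, 278 and 268 CPM with tazemetostat and 204, 207 and 207 CPM with the combination, against 428, 431 and 442 CPM under DMSO. The 3 combination libraries were below all others, the single inhibitors overlapped, and the DMSO libraries were the highest. The log2 change was -0.59 (SE 0.05) with ipatasertib, -0.65 (SE 0.05) with tazemetostat and -1.08 (SE 0.05) with the combination, and the combination was 2.11-fold below DMSO.

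Other target genes of the pathway were described from lists of textbook targets. COL1A1 was already known to be lower from earlier results of these data. In the list of TGF-beta target genes, 24 of 28 were tested. With ipatasertib 5 were higher and 11 lower, with tazemetostat 4 higher and 13 lower, and with the combination 8 higher and 13 lower. Over all genes tested, 25.4%, 25.1% and 36.5% were higher and 28.7%, 20.9% and 34.5% lower with ipatasertib, tazemetostat and the combination in turn. The medians of the log2 changes were -0.13, -0.28 and -0.70, beside -0.01, 0.02 and 0.02 over all genes tested. With scaling by total counts alone the higher genes were 8 with ipatasertib and 8 with tazemetostat. COL1A1, a fibrillar collagen chain, averaged 204 ± 15.1 CPM with ipatasertib, 86.5 ± 4.74 CPM with tazemetostat and 50.3 ± 8.60 CPM with the combination, against 424 ± 24.3 CPM under DMSO (SD, n = 3 each). Its log2 change was -1.06 (SE 0.09) with ipatasertib, -2.29 (SE 0.09) with tazemetostat and -3.08 (SE 0.10) with the combination. TAGLN, an actin-binding protein, changed by -1.15 (SE 0.11) with ipatasertib, -1.06 (SE 0.10) with tazemetostat and -2.41 (SE 0.12) with the combination, and COL4A1, a basement membrane collagen chain, by -0.98 (SE 0.07) with ipatasertib, -1.23 (SE 0.07) with tazemetostat and -2.19 (SE 0.08) with the combination. Among the genes higher with the combination were TIMP1, an inhibitor of matrix proteases, IGFBP3, which binds insulin-like growth factors, and LTBP2, a matrix protein, at 1.12, 0.98 and 1.13, named after their values were seen. The fibroblast-type marker COL3A1 had 1204 counts with ipatasertib, 313 with tazemetostat and 90 with both inhibitors, against 3341 under DMSO. COL1A2, also among the markers of other cell types, was likewise called lower with each treatment. DCN and LUM, matrix genes among the same markers, were called lower with tazemetostat and with the combination, but higher with ipatasertib. DCN averaged 131 CPM with ipatasertib, against 98.8 CPM under DMSO, and LUM 12.6 CPM, against 10.1 CPM. PDGFRB was called higher with ipatasertib alone, and ACTA2 with each treatment. What part these markers had in the fall of the collagen genes was not tested.

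Of 11 BMP target genes outside the pathway genes above, 10 were tested. With ipatasertib 6 were higher and 2 lower, with tazemetostat 8 higher and 2 lower, and with the combination 9 higher and 0 lower, with medians of 0.40, 0.60 and 1.47. The higher ones among all genes tested were 25.4%, 25.1% and 36.5%. DLX5, a homeobox factor of bone and limb, averaged 3.67 ± 0.463 CPM with ipatasertib, 2.99 ± 0.382 CPM with tazemetostat and 7.82 ± 0.703 CPM with the combination, against 1.66 ± 0.232 CPM under DMSO (SD, n = 3 each) and changed by 1.14 (SE 0.16) with ipatasertib, 0.86 (SE 0.16) with tazemetostat and 2.25 (SE 0.15) with the combination. DLX2, of the same family, changed by 0.98 (SE 0.15) with ipatasertib, 0.96 (SE 0.15) with tazemetostat and 2.22 (SE 0.14) with the combination, and ATOH8, a helix-loop-helix factor, by 1.19 (SE 0.14) with ipatasertib, 0.69 (SE 0.14) with tazemetostat and 1.98 (SE 0.13) with the combination. MSX2, a homeobox factor, had 3 counts with ipatasertib, 216 with tazemetostat and 139 with both inhibitors, against 4 under DMSO. It was higher with tazemetostat and with the combination and not called with ipatasertib, and its fitted changes of 5.27 and 5.22 depend on those few DMSO counts. With scaling by total counts alone the count of lower genes with tazemetostat was 0.

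**Figure D3:**
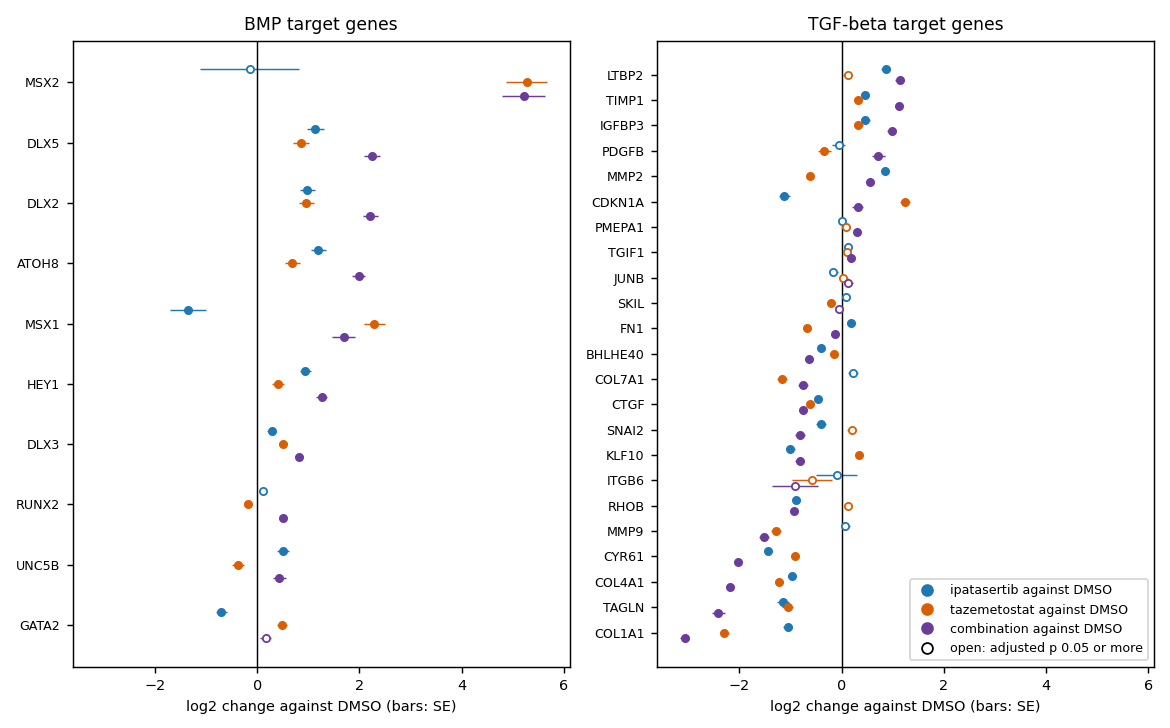
Log2 change against DMSO (x axis, lines of 1 SE, 3 libraries per group) of the tested genes in the lists of BMP targets (left) and TGF-beta targets (right, 1 gene not drawn), with blue, orange and purple points for ipatasertib, tazemetostat and the combination, open where the adjusted p was 0.05 or more. With the combination 9 of 10 BMP targets lie right of 0 and were called, while over the whole list of 24 tested TGF-beta targets 13 were called lower and 8 higher.

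Proteins that bind or present the ligands outside the cell were mixed. Of 25 tested extracellular and membrane modulators among 33, 9 were higher and 6 lower with ipatasertib, 9 higher and 11 lower with tazemetostat, and 12 higher and 8 lower with the combination, with medians of 0.16, -0.20 and 0.32. Called in either direction were 54.1%, 46.0% and 71.0% of all genes tested. SOST, sclerostin, is best known as a WNT antagonist of bone and had 16 counts with ipatasertib, 43 with tazemetostat and 110 with both inhibitors, against 9 under DMSO. RGMA, a BMP co-receptor, had 7 counts with ipatasertib, 118 with tazemetostat and 87 with both inhibitors, against 10 under DMSO. NEO1, the receptor neogenin that binds RGM proteins, changed by 0.61 (SE 0.08) with ipatasertib, 2.27 (SE 0.08) with tazemetostat and 2.83 (SE 0.08) with the combination. CHRDL2, a chordin-like BMP antagonist, changed by -0.68 (SE 0.15) with ipatasertib, -1.05 (SE 0.15) with tazemetostat and -2.09 (SE 0.18) with the combination.

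Intracellular regulators of SMAD signalling had medians near 0. Of 24 tested among 26, 6 were higher and 4 lower with ipatasertib, 4 higher and 5 lower with tazemetostat, and 11 higher and 7 lower with the combination, with medians of 0.04, 0.02 and 0.08. All genes tested were called in either direction at 54.1%, 46.0% and 71.0%. With scaling by total counts alone 11 were higher with ipatasertib, and 8 higher and 2 lower with tazemetostat. Without tazemetostat B the higher ones with tazemetostat were 1. ZEB2, a SMAD-binding repressor of epithelial genes, changed by -0.12 (SE 0.09) with ipatasertib, -1.22 (SE 0.09) with tazemetostat and -1.27 (SE 0.09) with the combination, not called with ipatasertib. NEDD4L, a ubiquitin ligase for SMADs, changed by 0.60 with the combination, PPM1A, a phosphatase reported to act on SMADs, by 0.54, and TOB1, an antiproliferative protein that binds SMADs, by 0.53. Of 6 tested ligands and receptors in other branches of the superfamily, 1 was lower with ipatasertib, 1 higher and 1 lower with tazemetostat, and 1 higher and 2 lower with the combination. Medians were 0.08, -0.63 and -0.77, over genes with few counts, beside the same shares of all genes tested. ARTN, the ligand artemin of the GDNF family, changed by -1.38 (SE 0.15) with ipatasertib, -0.63 (SE 0.13) with tazemetostat and -1.79 (SE 0.16) with the combination. NRTN, the GDNF-family ligand neurturin, was called with tazemetostat and with the combination, at 1.30 and 1.69. Its tazemetostat call ended without tazemetostat C (log2 change 1.14, adjusted p = 0.0600) or DMSO C (log2 change 0.98, adjusted p = 0.0643). AMH, anti-Mullerian hormone, was called with the combination, at -0.86.

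The combination was then set against each inhibitor alone. Against ipatasertib, 20 of the 49 genes were higher and 8 lower, or 57.1%, beside 39.1% of all genes tested (21.8% higher and 17.3% lower). Of them 9 were higher and 1 lower by 2-fold or more (7.04% and 0.867% of all genes tested), and the groups did not overlap for 32 genes (46.8%). Without tazemetostat A and combination B the lower genes were 13. Against tazemetostat, 21 were higher and 13 lower, or 69.4%, beside 60.6% of all genes tested (29.8% higher and 30.8% lower). Of them 5 were higher and 2 lower by 2-fold or more (6.49% and 2.92%), and the groups did not overlap for 34 genes (59.3%). BMP3, GDF15, GDF9 and NOG are among these 5 and passed the filter only through treated libraries. BMP3, GDF15 and NOG are also among the 9 higher by 2-fold or more against ipatasertib. The counts against either inhibitor are therefore a description and no support. GDF15, BMP3, NOG, INHBB, SMAD9, ID2, ID4, BMPR1B, ACVR1, ACVR1B and SMAD3 were higher with the combination than with either inhibitor. The call of BMPR1B against tazemetostat, at 0.27 (SE 0.09), ended without tazemetostat A (log2 change 0.21, adjusted p = 0.0743). GDF15 was above ipatasertib by 3.60 (SE 0.16) and above tazemetostat by 2.44 (SE 0.13), and INHBB by 2.43 (SE 0.12) and 1.67 (SE 0.10), all log2 changes. TGFB3, TGFBI and TGFBR1 were lower than with either inhibitor, TGFB3 at log2 changes of -0.60 (SE 0.13) and -0.44 (SE 0.13). FST, BMP6, TGFBR3, BAMBI and GDF6 were above ipatasertib and below tazemetostat. TGFB2 and TGFBR2 were below ipatasertib and above tazemetostat. The log2 change of FST was 1.18 (SE 0.12) against ipatasertib and -0.65 (SE 0.10) against tazemetostat, and that of BAMBI 0.59 (SE 0.09) and -0.71 (SE 0.08). The call of TGFBR3 against tazemetostat ended without tazemetostat B or combination B (log2 change -0.28 to -0.24, adjusted p = 0.0777 to 0.130), and that of GDF6 against ipatasertib without ipatasertib B, ipatasertib C, combination A or combination C (log2 change 0.81 to 1.12, adjusted p = 0.0795 to 0.148).

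The interaction measures how far the log2 change in the combination lies from the 2 single log2 changes added up, and is 0 where the effects of the inhibitors multiply. It was called for 7 of the 49 genes, 5 above 0 and 2 below, or 14.3%, beside 3.62% of all genes tested (1.87% above and 1.75% below). Past 2-fold there were 1 above and 0 below (0.215% and 0.0740% of all genes tested). INHBB had an interaction of 1.21 (SE 0.18, adjusted p = 0.000487, quasi-likelihood test of edgeR, adjusted by Benjamini-Hochberg), so that the combination exceeded the product of the single effects. INHBA had 0.64 (SE 0.08, adjusted p = 0.000113 in the same test): both inhibitors lowered it, and the combination lowered it less than tazemetostat did. FST had -0.84 (SE 0.17, adjusted p = 0.00893 in the same test), so that the combination fell short of the product of the single effects. These 3 calls held in every alternative run. The numbers called changed with the libraries, to 11 above 0 and 5 below without tazemetostat A and combination B, and to 2 to 7 above and 1 to 4 below when 1 library was left out. ACVR1, BMP4 and SMAD3 were called above 0, at 0.36, 0.34 and 0.29, and GREM1 below 0, at -0.34, and each of these 4 calls ended without any of 8 to 10 single libraries. The remaining 42 were not called. They include GDF15 at 0.33 (SE 0.39, 95% interval -0.57 to 1.24), NOG at 0.27 (SE 0.58, -1.07 to 1.60) and BMP3 at 0.99 (SE 0.94, -1.18 to 3.16), whose intervals are wide, while that of ID4 was narrow at -0.02 (SE 0.09, -0.22 to 0.18).

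**Figure D4:**
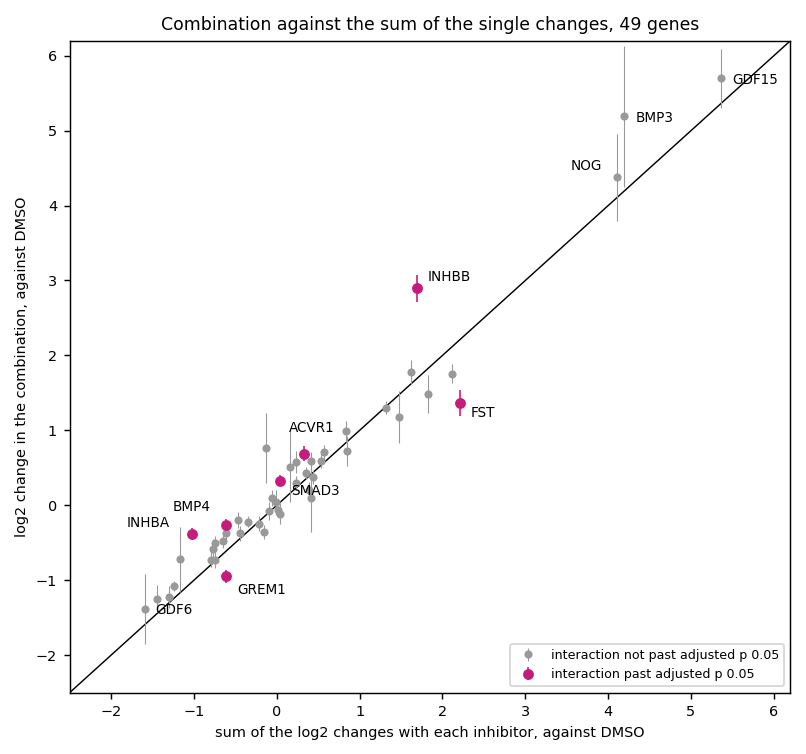
Log2 change with the combination against DMSO (y axis) against the sum of the log2 changes with ipatasertib and tazemetostat (x axis) for the 49 tested genes, with lines of 1 SE of the interaction. The diagonal marks equality, and the larger points passed an adjusted p of 0.05 for the interaction. INHBB lies 1.21 above the line, INHBA 0.64 above it and FST is at -0.84 relative to it.

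The pattern also takes in BMP1 and BMP2K, which are neither ligands nor receptors of the family. BMP1, a procollagen protease that also cleaves chordin, changed by -0.03 (SE 0.07) with ipatasertib, -0.62 (SE 0.07) with tazemetostat and -0.48 (SE 0.07) with the combination, not called with ipatasertib. BMP2K, a kinase named for its induction by BMP2, changed by -0.76 (SE 0.07) with ipatasertib, -0.04 (SE 0.07) with tazemetostat and -0.73 (SE 0.07) with the combination, not called with tazemetostat. In all, 12 of the 61 genes failed the filter on low counts. BMP15, GDF1, GDF2 and GDF7 had no count in any library. For GDF1, which shares exon bases with CERS1, a count of 0 does not show absence. INHBC, an inhibin subunit of the liver, had raw counts of 7 with ipatasertib, 14 with tazemetostat and 25 with both inhibitors, against 13 under DMSO, and ACVRL1, an endothelial type I receptor, 0 with ipatasertib, 2 with tazemetostat and 3 with both inhibitors, against 0 under DMSO. BMP10, GDF3, GDF5 and GDF10 had at most 4 counts in any group.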

How the data were processed

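Per the submitters' processing notes, the authors used STAR, SAMtools, HTSeq and DESeq2 with the genome build hg19, and deposited a raw count per gene for each library. The tool versions, annotation and strandedness of the counting were not given in the sources used here. RNA was prepared with RNeasy Plus and libraries with Kapa Hyper Prep, per the labels. A series-wide table of normalised signal was deposited by the authors as well, in which each library equalled its counts divided by 1 size factor (largest relative deviation 7.07e-10 over 23202 of 23228 lines). It was used only as a check, and no sample column was left unmatched.

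The 5 summary lines that name no gene, with 29.8% to 38.6% of the reads of a library, were left out. Their share was 35.7% to 38.6% in the libraries that received ipatasertib, alone or in the combination. It was 29.8% to 32.9% in the tazemetostat and DMSO libraries. The part of this difference in the changes was not tested. Counts were analysed in R 4.3.3 with edgeR 4.0.16 (filterByExpr, TMM, glmQLFit and glmQLFTest), with all 12 libraries and 4 group coefficients in 1 fit and no block. P-values were adjusted by Benjamini-Hochberg over the 14874 genes that passed, at a threshold of 0.05. The SE, taken back from the F statistic and the log2 change, is approximate. The fit was tested on simulated data with the same dispersion for every gene, changes in the combination alone and no deviating library. That setting is simpler than these data. Of 18 same-letter pairs, 2 had a correlation of deviations over 0.1 (range -0.0665 to 0.302), and no block was fitted for the letters. These 2 were tazemetostat A with combination A (0.302) and tazemetostat B with combination B (0.207). Pairs of different letters and groups reached 0.184, so whether these 2 groups were paired cannot be told from these values. Named with values in every library are members past 2-fold in a comparison with DMSO or with a called interaction of at least 0.5, and from each list of other pathway genes up to 4 with the largest change in the combination; 1 gene this rule names is not reported here. The members and lists were chosen with earlier results of these data known. Alternatives were DESeq2 1.42.0, other scalings and filters, a replicate block, only the groups compared, and leaving out libraries. Exon lengths and overlaps came from GENCODE 29 and promoters from RefSeq (GRCh38.p14), matched by symbol for 52 of 61 members. For 33 of them the bases 11 to 50 after the start lay in a GENCODE 29 transcript of the gene.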

Additional observations from a re-analysis of the deposited data

Results flagged for a closer look

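For 7 genes the effect of one inhibitor differed with and without the other, by the test of the interaction itself (edgeR quasi-likelihood, Benjamini-Hochberg over all genes tested). INHBB had an interaction of 1.21 (SE 0.18, adjusted p = 0.000487), INHBA of 0.64 (SE 0.08, adjusted p = 0.000113) and FST of -0.84 (SE 0.17, adjusted p = 0.00893). ACVR1 had 0.36 (SE 0.10, adjusted p = 0.0401), BMP4 0.34 (SE 0.08, adjusted p = 0.0256), SMAD3 0.29 (SE 0.08, adjusted p = 0.0367) and GREM1 -0.34 (SE 0.09, adjusted p = 0.0278). INHBB, INHBA and FST kept the call in every alternative run.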

How the results depend on the processing

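Of 83 called changes of the 17 named pathway genes, 1613 of 1656 alternative values kept direction and call, 43 lost the call and 0 reversed. Counts of called members stayed within 1.5 times in every alternative for each comparison with DMSO. Without tazemetostat A and combination B together, the members lower in the combination against ipatasertib were 13, and the interactions called were 11 above 0 and 5 below. Interactions above 0 numbered 3 with scaling by total counts alone and 3 without the filter. Leaving out 1 library gave 2 to 7 interactions above 0 and 1 to 4 below. Those above 0 were 2 without any 1 ipatasertib library, tazemetostat B, combination C, DMSO A or DMSO B, 3 without tazemetostat C or DMSO C, and 7 without combination B. Those below 0 were 1 without any 1 ipatasertib library, tazemetostat B, tazemetostat C, combination C, DMSO A or DMSO B, and 4 without tazemetostat A. The replicate block gave 18 higher and 13 lower members with ipatasertib, 19 and 16 with tazemetostat and 23 and 18 with the combination, and moved no count by over 1.5 times. Scaling by total counts alone shifted the all-gene median by 0.12, 0.07 and 0.14 for ipatasertib, tazemetostat and the combination. The share of calls that were higher then went to 63.1%, 69.6% and 62.6% of all genes called, against 46.9%, 54.6% and 51.4% with TMM. Members called were then 21 higher and 11 lower with ipatasertib, 20 and 12 with tazemetostat, and 24 and 14 with the combination. The interaction call of ACVR1 ended without ipatasertib A, ipatasertib B, ipatasertib C, tazemetostat B, combination C, DMSO A, DMSO B or DMSO C (interaction 0.34 to 0.39, adjusted p = 0.0591 to 0.134), that of BMP4 without ipatasertib A, ipatasertib B, ipatasertib C, tazemetostat B, tazemetostat C, combination C, DMSO A or DMSO B (interaction 0.33 to 0.35, adjusted p = 0.0589 to 0.0763), that of GREM1 without ipatasertib A, ipatasertib B, ipatasertib C, tazemetostat B, tazemetostat C, combination C, DMSO A or DMSO B (interaction -0.37 to -0.27, adjusted p = 0.0529 to 0.101) and that of SMAD3 without ipatasertib A, ipatasertib B, ipatasertib C, tazemetostat B, tazemetostat C, combination A, combination C, DMSO A, DMSO B or DMSO C (interaction 0.27 to 0.31, adjusted p = 0.0528 to 0.102). The cause was not tested. For 19 genes taken by the naming rule from the other pathway lists the same alternatives were added after seeing the data, and 954 of 956 values kept direction and call. Those genes too were chosen for large changes, which favours stable calls. Genes with a few counts under DMSO, such as BMP3 and NOG, are limited by depth.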
